A study of Mus musculus with 34 samples.

Results

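The p53 targets *Fdxr*, *Ei24*, *Dram1*, *Gls2*, *Ak1*, *Ephx1*, *Cpt1c* and *Sat1* were followed in limb buds of E11.5 mouse embryos that had lost *Hnrnpk* in the limb mesenchyme. They were taken by name, as genes reported to be activated by p53 in metabolism and autophagy, and all 8 were found among the 22040 genes of the mRNA-seq table. In the CKO limb buds, *Ak1* was 1.72 times its WT level. It was the only one of the 6 tested genes to pass an adjusted test. It did so when libraries with the same replicate number were compared, a test that called 1.13% of all genes higher. Without this pairing, which rests on numbers that the labels do not explain, its limma adjusted p was 0.254. *Ei24* and *Fdxr* lay 1.22 and 1.23 times higher with no overlap between the groups, as did 5.63% of all genes tested. *Sat1* lay lower in each numbered pair of libraries, as did 21.3% of all genes tested, and *Cpt1c*, *Ephx1*, *Gls2* and *Dram1* overlapped between the groups.

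The comparison used 6 mRNA-seq libraries of 34 samples in the series, 3 WT and 3 CKO. The CKO embryos carried *Prrx1-Cre* and *Hnrnpk* fl/fl, with loxP sites on both sides of exons 4–7, and the labels give the other group as *Hnrnpk* WT. *Prrx1-Cre* acts in limb bud mesenchyme and spares the overlying ectoderm, and its action in the hindlimb is incomplete, so whole limb buds hold cells with an intact gene. Embryos of both sexes were used without sexing, and neither forelimb nor hindlimb is given for these libraries. Levels are in FPKM, read fragments scaled to exon length and library size, which allows comparison between genes of different length.

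p53 is a transcription factor that is kept low by Mdm2 and accumulates after DNA damage, ribosomal stress and other insults. Its best known targets stop the cell cycle or start apoptosis, and a further group adjusts metabolism: enzymes of the mitochondria, of nucleotide balance and of polyamine and lipid breakdown, and membrane proteins of autophagy. The 8 genes belong to this further group. *Hnrnpk* encodes an RNA- and DNA-binding protein that is itself known as a partner of p53.

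p53 binds a response element of 20 bases made of a pair of 10-base units. The consensus of a unit is RRRCWWGYYY, where R is A or G, W is A or T and Y is C or T. This element, with no bases between the units, was sought within 2500 bases on each side of the RefSeq starts on GRCm38.p6, a window of 5001 bases. Only the C and the G of each unit had to be intact, and every other position could be a mismatch. The consensus reads the same on both strands. The best match of the 3 genes whose groups did not overlap is shown 5′ to 3′ on the strand of the gene. *Cdkn1a* and *Ccng1* are shown likewise, so that members and textbook p53 targets can be set side by side. Both were taken from the p53 arrest, death and feedback genes with at most 1 mismatch, found at 4 of 34 searched starts of that list. They therefore match better than most genes of that list. Capitals mark the 20 bases of the match. Every member stretch shown has a base other than A or T between the C and the G of a unit. This is not a trait of all members. A best match of each of *Dram1*, *Ephx1* and *Sat1*, not shown, has only A or T there. So do the *Cdkn1a* and *Ccng1* stretches, which were chosen for having at most 1 mismatch.
Ei24: agggcTGGCAGGCCGGAGCTAGTTCctaag
Ak1: tcttcCAGCCAGTTCAGGCTGGCTGgagta
Ak1: gggggTGCCAGGCTTGAGCTTGACCccagc
Fdxr: aagctGAACGTGTCTGCTCTTGCGGgagaa
Cdkn1a: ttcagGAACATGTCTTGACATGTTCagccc
Ccng1: ccggaACGCAAGCCCGGGCTAGTCTgcgcc

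The *Cdkn1a* stretch (chr17:29090923-29090952, plus strand, outside the gene, at position -42 from the RefSeq start at 29090979) had 1 mismatch to the consensus. The *Ccng1* stretch (chr11:40754931-40754960, minus strand, intron, at position 340) also had 1 mismatch, and is one of 2 *Ccng1* stretches tied at that count. The *Ei24* stretch (chr9:36797111-36797140, minus strand, UTR exon, at position 208) had 3. The first *Ak1* stretch (chr2:32619599-32619628, plus strand, upstream of the gene, at position -2145) and the second (chr2:32626660-32626689, plus strand, intron, at position 1237 from a second RefSeq start) had 4 each. For *Fdxr*, 5 stretches tied at 5 mismatches, and the one shown lies in a noncoding exon (chr11:115276681-115276710, minus strand, at position 273).

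None of the 7 members with a RefSeq start in the table used here had a match with at most 2 mismatches, against 5.49% of the 16403 genes searched and 8 of 26 searched p53 arrest, death and feedback genes. With at most 3 mismatches the counts were 1 of 7 members, *Ei24*, 23.2% of all genes and 15 of 26 of the p53 genes. At most 4 mismatches were found in 5 of 7 members, 57.5% of all genes and 24 of 26 of the p53 genes. A match of letters is a description of the sequence and not a measured binding site, and elements further away or with bases between the units were not sought. *Gls2* was not searched.

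*Hnrnpk* itself was measured at 193, 195 and 185 FPKM in WT libraries 1, 2 and 3 and at 127, 142 and 135 in the CKO libraries. The groups did not overlap, and the log2 fold change was -0.50 (SE 0.13, limma adjusted p = 0.334, and 0.0575 with the replicate number as a block). A value for the whole gene does not separate the deleted exons. The values stand on 17140866 to 24624426 reads per library on the listed genes, and globin genes took 11.7% to 32.4% of the summed FPKM. CKO and WT libraries with the same number deviated together from their groups, mainly through replicate 1, so each test is given without and, where it changes a call, with the replicate block. In whole limb buds, fewer cells of a type and less RNA per cell cannot be told apart.

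Of the 8 genes, 6 had a mean of at least 0.5 FPKM and were tested among 12305 genes. All 3 CKO values lay above all 3 WT values in 3 of the 8 genes, *Ak1*, *Ei24* and *Fdxr*, against 5.63% of all genes tested. None lay wholly below, against 8.86% of all genes. In the limma test, no member had an adjusted p under 0.05, in a comparison that called 7 genes higher (0.0569%) and 1 lower (0.00813%). At an unadjusted p under 0.05, *Ak1* and *Ei24* were higher and no member was lower, against 2.84% of all genes higher (350) and 5.46% lower (672). That split became 140 and 848 when the libraries were scaled to an equal sum without globin genes, 1286 and 1130 without CKO replicate 1, and 1794 and 1787 with replicates 2 and 3 alone. With the replicate block, 1 member, *Ak1*, was called higher and none lower, against 1.13% and 1.68% of all genes. At an unadjusted p under 0.05 the block had 4 members higher, *Ak1*, *Ei24*, *Cpt1c* and *Fdxr*, and none lower, against 8.14% and 10.2% of all genes. The thresholds of the study are an unadjusted p under 0.05 together with a change of more than 2 times in either direction. Applied to the limma test, they were passed by no member, against 0.423% of all genes higher and 0.244% lower. The study does not name its own test, and these shares are not its result. The median log2 fold change of the 6 tested genes was 0.29, with 5 above 0 and 1 below, and the median of all genes tested was 0.0048.

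**Figure D1:**
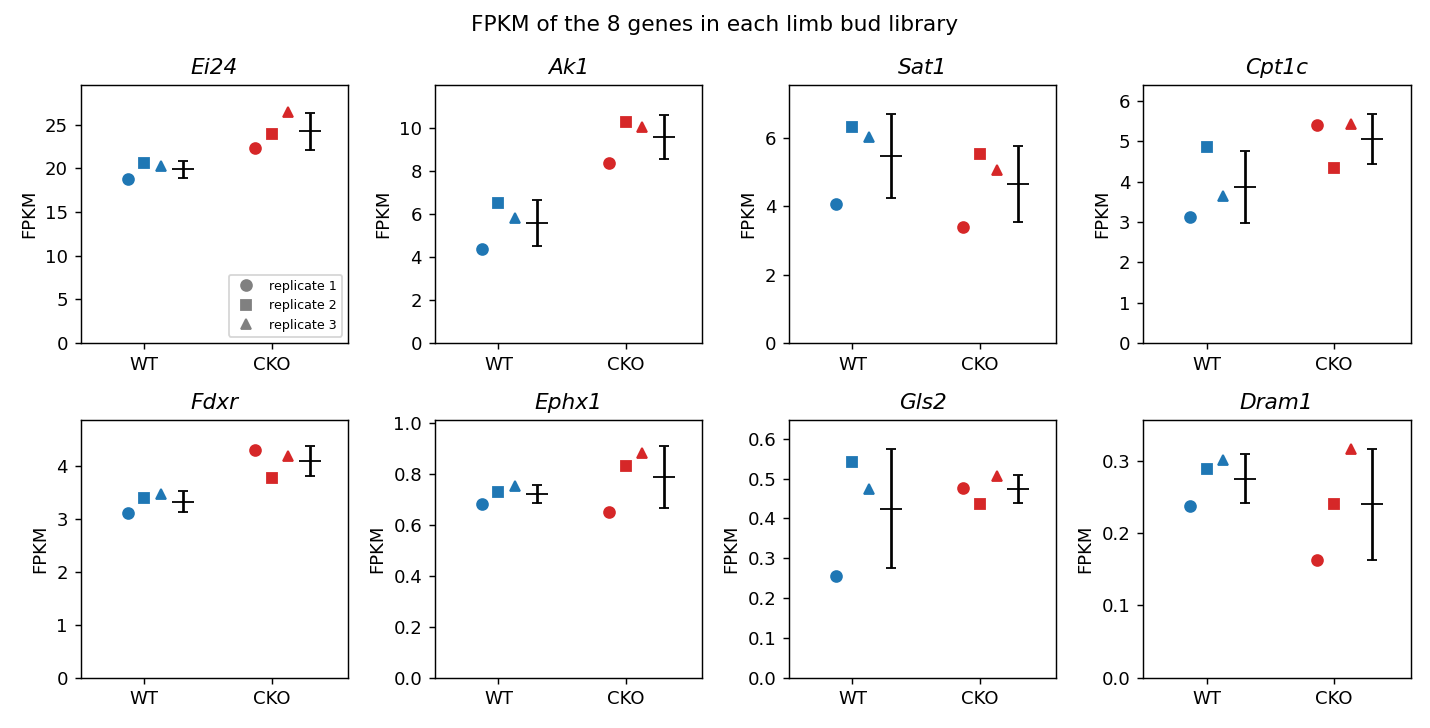
FPKM of each of the 8 genes (linear axes from 0, a scale per gene) in the 3 WT (blue) and 3 CKO (red) libraries, with symbols for the replicate number and bars for mean ± SD. The CKO points of *Ak1*, *Ei24* and *Fdxr* all lie above the WT points, and those of the other 5 genes overlap with WT.

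*Ak1* (ENSMUSG00000026817, chr2:32621758-32635058, plus strand) encodes the cytosolic adenylate kinase, which turns ADP into ATP and AMP and is best known from muscle, brain and red blood cells. Its level was 4.39, 6.49 and 5.82 FPKM in the WT libraries (replicates 1, 2 and 3, the order used throughout) and 8.37, 10.25 and 10.04 FPKM in CKO. Replicate 1 was the lowest of both groups, and the lowest CKO library was still above the highest WT library. The means were 5.57 ± 1.08 (SD, n = 3) and 9.56 ± 1.03 FPKM (SD, n = 3), from 205 to 403 reads in WT and 393 to 621 in CKO. The log2 fold change was 0.78 (SE 0.17, 95% interval 0.38 to 1.18), with a limma adjusted p of 0.254 and an unadjusted p of 0.00202. Between libraries of the same number it was 0.92, 0.65 and 0.78, and with the replicate block the limma adjusted p was 0.00339 (95% interval 0.54 to 1.02). With replicates 2 and 3 alone the log2 fold change was 0.71. An exact two-sided permutation test gave p = 0.1, the smallest that 3 against 3 libraries allow.

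Of 9 other nucleoside monophosphate kinases, 6 were tested and none was called with or without the block, with a median log2 fold change of -0.07.

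Blood and muscle cells are rich in *Ak1*, and their marker genes differed between the libraries too. The summed FPKM of 9 muscle markers was 14.7, 56.0 and 51.1 in the WT libraries and 35.9, 78.3 and 64.9 in the CKO libraries, and 9 of 9 had a log2 fold change above 0. This sum, like *Ak1*, was higher in CKO in each numbered pair. With the replicate block, 2 of them were called higher. The 11 erythroid markers summed to 38000, 63493 and 64243 FPKM in WT and 31023, 143375 and 85826 in CKO, and 11 of 11 had a log2 fold change above 0, with none called. In replicate 1 the erythroid sum was lower in CKO than in WT while *Ak1* was higher. No marker of either list was at 0 in all libraries, and the part of these cells in the *Ak1* difference was not tested beyond these values.

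**Figure D2:**
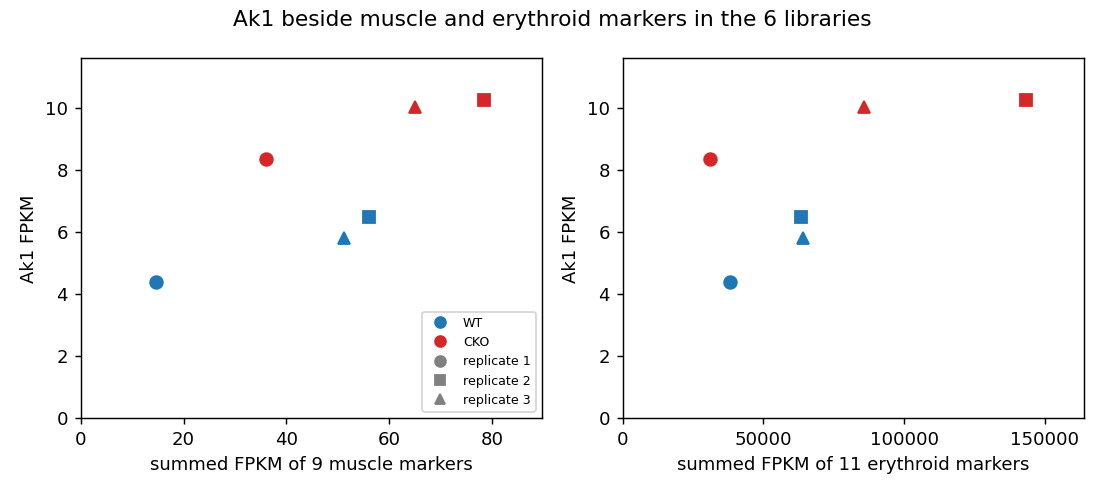
*Ak1* FPKM (vertical axis) against the summed FPKM of 9 muscle markers (left) and 11 erythroid markers (right) in the 6 libraries, blue for WT, red for CKO, with symbols for the replicate number. *Ak1* and the muscle sum were both higher in CKO in each numbered pair (muscle sums of 14.7 and 35.9, 56.0 and 78.3, 51.1 and 64.9), whereas the erythroid sum of replicate 1 was lower in CKO (31023 against 38000).

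*Fdxr* (ENSMUSG00000018861, chr11:115268024-115277050, minus strand) encodes the ferredoxin reductase of the mitochondrial matrix, which passes electrons from NADPH to the ferredoxins for iron-sulfur cluster assembly and steroid synthesis. It was measured at 3.10, 3.39 and 3.46 FPKM in WT and 4.29, 3.76 and 4.18 FPKM in CKO. All CKO libraries were higher, with the smallest gap in replicate 2. Mean levels were 3.32 ± 0.191 and 4.08 ± 0.281 FPKM (SD, n = 3 each), from 157 to 280 reads per library. The log2 fold change was 0.29 (SE 0.13, 95% interval -0.0028 to 0.58, limma adjusted p = 0.601), and the adjusted p was 0.249 with the replicate block.

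Its electron acceptor *Fdx1* overlapped between the groups, at 3.99 ± 0.919 FPKM in WT against 3.20 ± 0.854 FPKM in CKO (SD, n = 3 each, log2 fold change -0.32). The ratio of *Fdxr* to *Fdx1* differed by 0.61 on the log2 scale (exact permutation p = 0.2, adjusted p = 0.533), and by 0.33 without CKO replicate 1. Among 16 ferredoxin, iron-sulfur cluster and ferredoxin-dependent genes, 14 were tested, 7 on each side of 0, and their median log2 fold change was 0.02. With the replicate block, *Cyp27a1*, a mitochondrial sterol hydroxylase that takes its electrons through this chain, was the one called gene, with a fall from 6.17 ± 0.654 to 3.64 ± 0.625 FPKM (SD, n = 3 each; log2 fold change -0.75, limma adjusted p = 0.00700, and 0.247 without the block).

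*Ei24* (ENSMUSG00000062762, chr9:36779159-36797393, minus strand) encodes a membrane protein of the endoplasmic reticulum that was found as a p53-induced gene in etoposide-treated cells and is needed for autophagic degradation. It was the most abundant of the 8 genes, at the 90.0 percentile of all listed genes. Its level was 18.8, 20.6 and 20.3 FPKM in WT and 22.3, 23.9 and 26.5 in CKO. Every CKO library was above every WT library, and the gap between the groups was narrow, from 20.6 to 22.3. The means of 19.9 ± 0.972 and 24.2 ± 2.09 FPKM (SD, n = 3 each), on 1647 to 3073 reads, gave a log2 fold change of 0.28 (SE 0.12, 95% interval 0.01 to 0.55). The unadjusted limma p was 0.0416 and the adjusted p 0.564, or 0.166 with the replicate block. The unadjusted p stayed under 0.05 in 10 of 18 other settings. Of its exon bases, 324 are shared with the antisense gene *Gm26787* in the annotation. The libraries were stranded, but the strand setting of the counting is not given in the sources used here.

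*Dram1* (ENSMUSG00000020057, chr10:88322804-88379080, minus strand), a lysosomal membrane protein that promotes autophagy downstream of p53, was the least abundant of the 8 genes. It was measured at 0.237, 0.288 and 0.301 FPKM in WT and 0.163, 0.240 and 0.317 FPKM in CKO. The CKO range enclosed the WT range. Only 9 to 23 reads per library stood behind these values, and *Dram1* fell below the filter. With no filter, the log2 fold change was -0.16 (SE 0.23, 95% interval -0.69 to 0.36, limma adjusted p = 0.888), an interval that includes both 0 and the value of *Ei24*.

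The relatives of these membrane proteins overlapped between the groups. *Dram2*, the related lysosomal protein, had 4.72 ± 0.700 and 4.54 ± 1.08 FPKM in WT and CKO (SD, n = 3 each), and *Dram1* had 0.0583 times its FPKM in WT. *Vmp1*, an autophagy membrane protein of the endoplasmic reticulum, had 11.1 ± 2.25 and 13.8 ± 4.57 FPKM (SD, n = 3 each). The log2 ratios differed by -0.09 for *Dram1* to *Dram2* (exact permutation p = 0.7) and by 0.01 for *Ei24* to *Vmp1* (exact permutation p = 1), and both changed sign under other settings. All 41 genes of a list of the autophagy machinery were tested, of which 25 lay above 0 and 16 below, and the median log2 fold change was 0.04. With the replicate block, 1 was called, *Ulk2*, a kinase that starts autophagy, which fell from 9.23 ± 0.770 to 5.47 ± 0.255 FPKM (SD, n = 3 each; log2 fold change -0.74, limma adjusted p = 0.00470, and 0.134 without the block).

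*Gls2* (ENSMUSG00000044005, chr10:128194457-128210004, plus strand) encodes the liver-type glutaminase, a mitochondrial enzyme that makes glutamate from glutamine. Its level was 0.255, 0.541 and 0.475 FPKM in WT and 0.477, 0.436 and 0.507 in CKO. WT replicate 1 was the lowest, and the other 5 libraries lay together. With 16 to 45 reads per library it fell below the filter, and with no filter its log2 fold change was 0.17 (SE 0.26, 95% interval -0.44 to 0.79, limma adjusted p = 0.898). The numbered pairs gave 0.70, -0.26 and 0.08, of both signs. Of 13 enzymes and carriers of glutamine and glutamate, none was called with or without the block, and the median log2 fold change was 0.01.

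*Cpt1c* (ENSMUSG00000007783, chr7:44959372-44974851, minus strand) encodes the neuronal member of the carnitine palmitoyltransferase family, a protein of the endoplasmic reticulum with little transferase activity. It was measured at 3.13, 4.87 and 3.64 FPKM in WT and 5.41, 4.34 and 5.43 FPKM in CKO. WT replicate 2 lay above CKO replicate 2, and the other pairs went the opposite way. The means were 3.88 ± 0.894 and 5.06 ± 0.623 FPKM (SD, n = 3 each), on 316 to 726 reads. The log2 fold change was 0.39 (SE 0.19, 95% interval -0.04 to 0.83, limma adjusted p = 0.642), and the adjusted p was 0.220 with the replicate block. An antisense gene, *6530437J22Rik*, shares 366 of its exon bases.

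Neural RNA was low in these samples. The summed FPKM of 9 neural markers lay between 6.64 and 10.4 in WT libraries and between 7.31 and 8.95 in CKO libraries, and 5 of the 9 were below the filter. *Cpt1a*, the mitochondrial form that admits long-chain fatty acids for oxidation, had 4.97, 5.75 and 6.54 FPKM in WT and 8.61, 8.39 and 8.62 in CKO. The groups did not overlap, and the log2 fold change of 0.57 (SE 0.13) had a limma adjusted p of 0.272 and, with the replicate block, of 0.0239. The ratio of *Cpt1c* to *Cpt1a* differed by -0.18 on the log2 scale (exact permutation p = 0.4), and the groups overlapped in it. Leaving out WT replicate 2 gave -0.0116, leaving out CKO replicate 2 gave -0.0869, and leaving out WT replicate 3 gave -0.31. Of 12 genes of the carnitine shuttle and fatty acid oxidation, 11 were tested, *Cpt1a* was the one called, and the median log2 fold change was -0.11.

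*Ephx1* (ENSMUSG00000038776, chr1:180976210-181020904, minus strand) encodes the microsomal epoxide hydrolase, a detoxifying enzyme best known from liver. Its level was 0.683, 0.728 and 0.752 FPKM in WT and 0.652, 0.830 and 0.882 in CKO. CKO replicate 1 was the lowest of all libraries and CKO replicates 2 and 3 the highest. The log2 fold change was 0.10 (SE 0.20, 95% interval -0.35 to 0.56, limma adjusted p = 0.922), on 23 to 41 reads per library. Of the *Ephx1* exon bases, 72 are shared with the pseudogene *Gm36961* on the same strand, and the part of this overlap in the values was not tested. Hepatocyte markers summed to between 0.682 and 2.41 FPKM in WT libraries and between 0.548 and 1.30 FPKM in CKO libraries, and only *Afp* of 6 reached the filter. The soluble epoxide hydrolase *Ephx2* was below the filter, at 0.405 ± 0.262 FPKM in WT against 0.344 ± 0.155 FPKM in CKO (SD, n = 3 each). The log2 ratio of the pair differed by 0.20 (exact permutation p = 0.8).

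*Sat1* (ENSMUSG00000025283, chrX:155213132-155216449, minus strand) encodes the spermidine/spermine acetyltransferase, the enzyme that opens polyamine breakdown. It was measured at 4.08, 6.34 and 6.03 FPKM in WT and 3.41, 5.54 and 5.06 FPKM in CKO. Replicate 1 was the lowest of both groups, so the groups overlapped, and CKO was the lower of each numbered pair. These differences were -0.25, -0.19 and -0.25 on the log2 scale. The mean log2 fold change was -0.23 (SE 0.23, 95% interval -0.78 to 0.31, limma adjusted p = 0.856), and the adjusted p was 0.30 with the replicate block (95% interval -0.48 to 0.02). *Sat1* was the 1 tested member below 0.

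Set against its relative *Sat2*, *Sat1* lay lower in all CKO libraries than in any WT library. The log2 ratio of *Sat1* to *Sat2* was 0.69, 0.74 and 0.74 in WT and 0.20, 0.58 and 0.41 in CKO. The difference of -0.33 had an exact permutation p of 0.1, or 0.4 after adjustment over 8 ratios of a member to a relative. *Sat2* itself had 3.27 ± 0.682 and 3.47 ± 0.458 FPKM in WT and CKO (SD, n = 3 each). Of 18 polyamine genes, 17 were tested, and their median log2 fold change was 0.05. The one called with the replicate block was *Paox*, the oxidase that acts on acetylated polyamines after *Sat1*, which fell from 3.61 ± 0.278 to 2.21 ± 0.186 FPKM (SD, n = 3 each; log2 fold change -0.69, limma adjusted p = 0.0177, and 0.216 without the block).

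**Figure D3:**
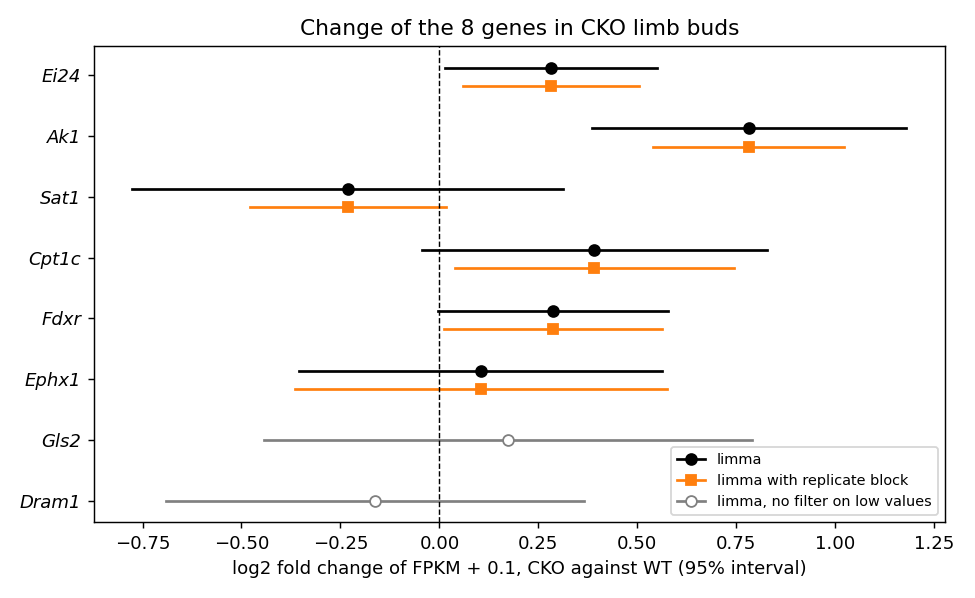
Log2 fold change of FPKM + 0.1 (horizontal axis, CKO against WT) of the 8 genes with 95% intervals from limma without (black) and with (orange) the replicate block, and in grey from limma with no filter for the 2 genes below it. The *Ak1* interval runs from 0.38 to 1.18, that of *Ei24* from 0.01 to 0.55, and those of the other 6 genes include 0 without the block.

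**Figure D4:**
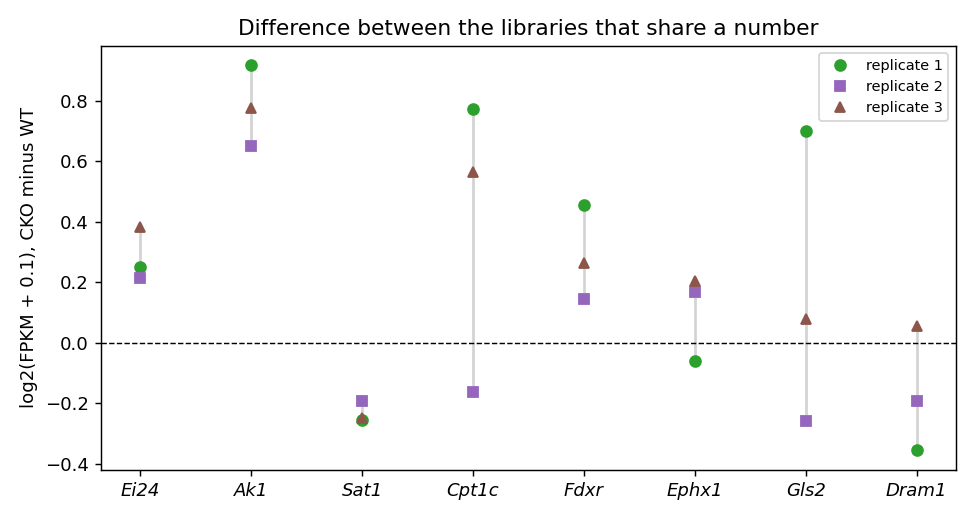
Difference in log2(FPKM + 0.1) between the CKO and the WT library of the same replicate number (vertical axis) for each of the 8 genes, with a symbol per number. *Ak1*, *Ei24* and *Fdxr* are above 0 at all 3 numbers, *Sat1* is below 0 at all 3, and the other 4 genes have both signs.

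Across numbered pairs, 3 tested members, *Ak1*, *Ei24* and *Fdxr*, were higher in CKO in every pair, against 18.2% of all genes tested, and 1, *Sat1*, was lower in every pair, against 21.3%. The spread between pairs differed among the genes. *Sat1* went from -0.25 to -0.19, whereas *Gls2* went from -0.26 to 0.70 and *Cpt1c* from -0.16 to 0.77.

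Of 36 other reported p53 targets in metabolism and autophagy, all were tested. Of these, 17 lay above 0 and 19 below, and the median log2 fold change was -0.01. The limma test called 1 higher and none lower, and with the replicate block 2 were higher and 4 lower. *Sesn2*, a sestrin that restrains mTORC1, rose from 3.55 ± 0.214 to 9.86 ± 0.983 FPKM (SD, n = 3 each; log2 fold change 1.45, limma adjusted p = 0.0101). *Trp53inp1*, a stress protein of autophagy and cell death, had a log2 fold change of 0.77 and passed with the block alone (limma adjusted p = 0.00785). Lower with the block alone were *Ulk2*, the lysosomal fucosidase *Fuca1* (log2 fold change -0.73, limma adjusted p = 0.0115), the proline dehydrogenase *Prodh* (-0.63, adjusted p = 0.0272) and the autophagy protein *Trp53inp2* (-0.59, adjusted p = 0.0393). This list shares 6 genes with the autophagy machinery.

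Among the p53 targets of arrest, death and feedback, calls were in one direction. Of 33 listed, 31 were tested, 26 lay above 0, and the median log2 fold change was 0.34, against 0.29 for the 6 tested members. The limma test called 5 higher and none lower, and the block 13 higher and none lower. *Eda2r*, a receptor of the TNF receptor family, had 0.320, 0.184 and 0.233 FPKM in WT and 4.70, 7.19 and 5.93 in CKO (log2 fold change 4.12, limma adjusted p = 0.00165). The others called without the block were the cyclin *Ccng1* (log2 fold change 2.36), the cell cycle inhibitor *Cdkn1a* (2.19), the Akt inhibitor *Phlda3* (2.03) and the RNA-binding *Zmat3* (1.50). With the block, the next by size were *Aen* (1.30), a nuclease of apoptosis, *Tnfrsf10b* (1.05), a death receptor, and *Bbc3* (0.75), the BH3-only protein Puma. The log2 fold change of *Ak1*, 0.78, lies among those of the genes called with the block alone.

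**Figure D5:**
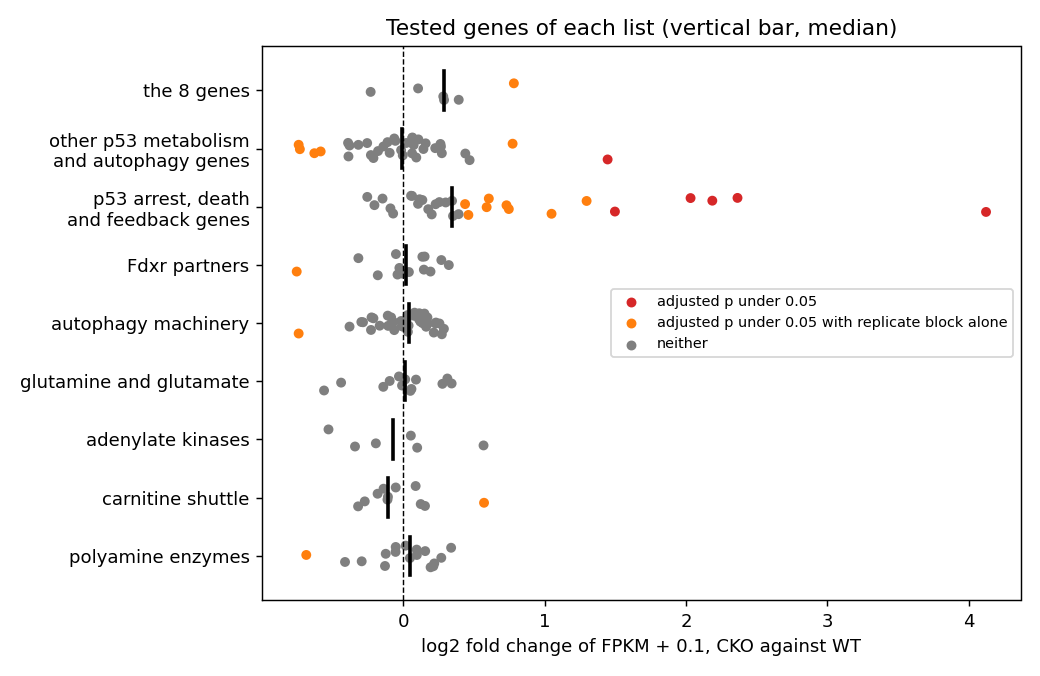
Log2 fold change of FPKM + 0.1 (horizontal axis, CKO against WT) of each tested gene in the 8 members, in 2 further p53 lists and in the pathway lists of the members, with a vertical bar at each median. Red points have an adjusted p under 0.05 without the replicate block and orange points with it alone; the p53 arrest, death and feedback list holds 5 red points, and the medians of the pathway lists lie from -0.11 to 0.05.

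Beside *Ak1*, the 3 genes whose log2(FPKM + 0.1) went most alike over the 6 libraries were *1810062G17Rik* (Pearson r = 0.998, 0.296 FPKM in WT and 1.38 in CKO), the argininosuccinate synthase *Ass1* (r = 0.993, 0.398 and 1.04 FPKM) and *Spg20* (r = 0.989, 14.9 and 17.9 FPKM). The correlations are a description over 6 libraries that share the same groups, chosen as the highest of 12305 genes.

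The limb mesenchyme markers, by which the tissue was checked, were present in every library. Their 9 genes summed to between 345 and 355 FPKM in WT libraries and between 290 and 331 FPKM in CKO libraries, without overlap, and *Tbx5*, a limb transcription factor, was called lower with the replicate block (log2 fold change -0.93, limma adjusted p = 0.00734). Of the 9 limb mesenchyme markers, 8 had a log2 fold change below 0. The 6 endothelial, 6 macrophage and 7 ectodermal markers overlapped between the groups in their sums, and none was called with or without the block. In log2 fold change, all 6 endothelial markers lay below 0, while all 5 tested macrophage markers and 6 of 7 ectodermal markers lay above 0.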

How the data were processed

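mRNA-seq of 3 WT and 3 CKO limb bud samples was used. Hi-C, CUT&RUN and ATAC-seq samples of the series were not analysed here. The authors made stranded mRNA libraries from 3 biological replicates per group and deposited FPKM for 22040 genes, with table columns named KO for the samples labelled CKO. The submitters' processing notes name cutadapt 2.5, HISAT2 2.1.0 and featureCounts 1.6.3 and the build mm10, without the order or settings. Of the genes, 21933 (99.5%) were found in GENCODE vM21, and for 92.6% of these the FPKM came out as whole reads in all libraries (tolerance 0.1 reads). The reads on listed genes were 0.947 to 1.11 times the size the FPKM had been divided by, so a scaling between libraries is part of the deposited values.

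The 12305 genes whose mean was 0.5 FPKM or more were compared as log2(FPKM + 0.1) with limma 3.58.1 (eBayes with trend) in R 4.3.3, with Benjamini-Hochberg adjustment over all genes tested. Fold changes are on this scale and understate those of low genes. The limma p-values weigh the difference between the groups against the spread between these samples, with information drawn from all genes tested. Exact permutation tests were two-sided. The replicate numbers were taken to pair the libraries, because the deviations from the group means of libraries 1, 2 and 3 correlated across genes at 0.64, 0.44 and 0.27. The labels do not say what a number stands for. Numbers 2 and 3 were also correlated with each other (0.49 and 0.31), above their own 0.44 and 0.27.

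The 8 genes, the lists and the tests were chosen with earlier results of these data known. The genes named are the 8 members, their fixed relatives, at most 8 called genes per list, *Hnrnpk* and the 3 genes most like the member of smallest p. Of the 8 ratios of a member to a relative, 2 are not reported here. Starts and sequences are from RefSeq on GRCm38.p6, positions of genes from GENCODE on GRCm38. The fit was tested on simulated data with log2 changes of size 1 and 2. Without the block it recovered 58% and 89% of them, with 7 false calls among 12305 genes. With the block it recovered 21% and 73%, with 2 false calls. Neither a pairing of libraries nor changes as small as those of the members were simulated. Alternatives were other pseudocounts, filters, scalings and variance models, the replicate block, voom on recovered reads, each library left out and replicates 2 and 3 alone.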

Additional observations from a re-analysis of the deposited data

How the results depend on the processing

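Under 18 other settings the log2 fold changes of the 6 tested members kept their direction. They ranged from 0.68 to 0.80 for *Ak1*, 0.18 to 0.30 for *Ei24*, 0.18 to 0.33 for *Fdxr*, 0.20 to 0.41 for *Cpt1c*, 0.0088 to 0.19 for *Ephx1* (11 settings, since a filter at 1 FPKM drops it) and -0.34 to -0.20 for *Sat1*, and with a library left out from 0.62 to 0.90, 0.22 to 0.34, 0.24 to 0.34, 0.25 to 0.56, 0.03 to 0.22 and -0.43 to -0.02. *Ak1* passed with the replicate block (0.78, limma adjusted p = 0.00339), which called 139 of 12305 genes higher. It also passed with replicates 2 and 3 alone (0.71, limma adjusted p = 0.000182), a setting that called 877 of 12319 genes higher. The adjusted p of *Ak1* was 0.102 to 0.871 with a library left out. *Dram1* and *Gls2* have a fitted value without a filter alone.

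Genes called higher (7) and lower (1) became 139 and 207 with the replicate block, 877 and 986 with replicates 2 and 3 alone, 13 higher with quantile normalization, 4 and 0 at an equal sum without globin genes (which moved the median of all genes by -0.10; unadjusted p under 0.05, 988 genes), 0 and 0 in an ordinary linear model (1108 genes), and 0 lower with no filter (879 lower genes at an unadjusted p under 0.05). With a library left out they were 1 to 10 and 0 to 13: 3 higher without WT replicate 2, 1 higher in the absence of WT replicate 3 or of CKO replicate 2 or 3, and 13 lower without CKO replicate 1 but 0 lower without any other library (unadjusted, 515 genes without WT replicate 3 to 2416 without CKO replicate 1). Members called higher were 1 with the block and 1 with replicates 2 and 3 alone. Of the 36 other metabolic and autophagy targets (1 higher, 0 lower), 2 and 4 were called with the block, 5 and 6 with replicates 2 and 3 alone, 0 higher at an equal sum without globin genes and in the ordinary linear model, and 0 to 1 higher with a library left out (0 without WT replicate 2 or 3 or CKO replicate 2 or 3). Of the 33 arrest, death and feedback targets (5 higher, 0 lower), 13 were higher with the block, 15 higher and 2 lower with replicates 2 and 3 alone, 0 in the ordinary linear model, and 1 to 6 higher with a library left out (3 without WT replicate 2, 1 without WT replicate 3 or CKO replicate 2 or 3). At an equal sum without globin genes, 140 genes were higher and 848 lower at an unadjusted p under 0.05, against 350 and 672.

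Without a library, the ratio of *Cpt1c* to *Cpt1a* ranged from -0.31 to -0.0116 and that of *Fdxr* to *Fdx1* from 0.33 to 0.76. Ratios that changed sign were *Dram1* to *Dram2* (0.0145 at a pseudocount of 1, and -0.251 to 0.0618 with a library left out), *Ephx1* to *Ephx2* (-0.17 to 0.64 with a library left out) and *Ei24* to *Vmp1* (-0.0029 with quantile normalization, -0.0879 with replicates 2 and 3 alone, -0.22 to 0.23 with a library left out). The causes were not tested. *Dram1*, *Gls2* and *Ephx1* stood on 9 to 45 reads per library, and the part of depth in their errors was not tested.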
